A study of Mus musculus with 8 samples.

Results

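The L-type calcium channel of the heart was followed through the H3K27Ac peaks of 5 genes, *Cacna1c*, *Cacna1d*, *Cacnb2*, *Cacna2d1* and *Rrad*. A peak was counted for a gene when its centre lay nearer to a curated RefSeq transcription start of that gene than to a start of any other gene on the mm10 assembly. By this rule 35 of 45987 peaks belonged to the 5 genes, all of them among the 45980 peaks on the 21 assembled chromosomes. The ChIP-Seq was made on ventricles of mice at postnatal day 7 (P7). Controls carried the floxed *Arid1a* f/f alleles without Cre, and *Arid1a cKO* mutants were aMHC-Cre;Arid1a f/f, so both groups shared the floxed alleles. The aMHC-Cre transgene is active in cardiomyocytes, whereas ventricles also hold fibroblasts, endothelial cells, mural cells and leukocytes. Each group had 2 H3K27Ac libraries and 2 input libraries, 8 libraries in all.

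In cardiomyocytes, depolarization opens L-type channels, and the calcium that enters triggers the release of more calcium from the sarcoplasmic reticulum, which starts contraction. The pore is formed by an α1 subunit, a cytoplasmic β subunit brings the pore to the membrane and tunes its gating, an extracellular α2δ subunit raises its surface density, and small GTPases of the RGK family hold the current down by way of the β subunit. H3K27Ac, acetylation of a lysine of histone H3, marks active promoters and enhancers, and *Arid1a* encodes a DNA-binding component of SWI/SNF, a complex that moves nucleosomes.

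The deposited value of a peak is the log2 of its mean normalized read count in each group, so all levels are the authors' means. The table has no value per library, so sequencing depth and the spread between hearts cannot be given, and the differences are described here without a test, the authors' own test not being used. A difference is the *Arid1a cKO* value minus the control value, on the log2 scale, and a peak was counted as lower or higher when this difference was at least 1 in size, a 2-fold limit. Peaks of 1 gene share a locus and are not replicates of each other. In bulk ventricles, fewer cells of a type and less H3K27Ac per cell cannot be told apart.

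At most peaks of the 5 genes H3K27Ac in *Arid1a cKO* was below that in control hearts. The difference was below 0 at 30 of 35 peaks (85.7%), against 22225 of 45980 (48.3%) among all peaks. The median difference was −0.59, against 0.01 over all peaks. By the 2-fold limit 8 peaks of 3 genes were lower (22.9%), against 10.6% of all peaks, and 2 were higher (5.71%), against 4.57%. At a 1.5-fold limit 18 peaks were lower (51.4%), with at least 1 in each of the 5 genes, against 17.3% of all peaks, and 3 were higher (8.57%), against 12.0%. At a 3-fold limit 3 were lower (8.57%), against 5.60%, and 1 was higher (2.86%), against 1.35%. The share of lower peaks was thus above that of all peaks at each limit, with the widest gap at 1.5-fold and 3 peaks behind it at 3-fold, and the share of higher peaks lay near it. Summed over the 35 peaks, H3K27Ac went from 7583 normalized reads in control to 5463 in *Arid1a cKO*, a log2 ratio of −0.47, against −0.08 for the sum over all peaks. In the same groups the peaks of fibroblast markers had a median difference of 0.46 and those of cardiomyocyte markers one of −0.15, and their part in the result was not tested.

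**Figure D1:**
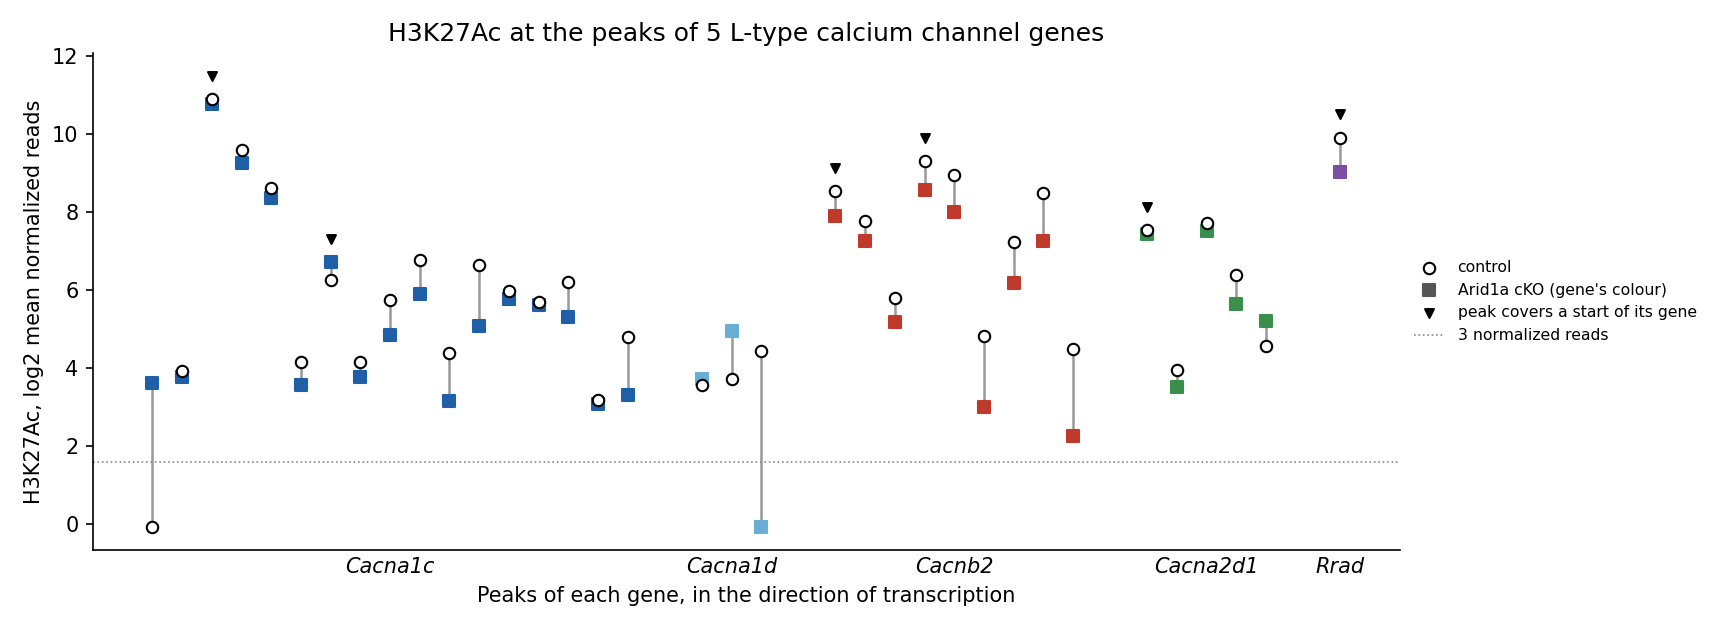
H3K27Ac (log2 mean normalized reads) in control and *Arid1a cKO* ventricles at each of the 35 peaks of the 5 genes, ordered within a gene in the direction of transcription; each point is the authors' group mean, and triangles mark peaks that cover a start of their gene. The differences of all 9 *Cacnb2* peaks and of the *Rrad* peak were below 0, past the 2-fold limit at 4 of the *Cacnb2* peaks, and 1 group mean of *Cacna1c* and 1 of *Cacna1d* lay under 3 normalized reads.

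The peaks of the channel genes were wider than most, with a median width of 2678 bp against 1781 bp over all peaks, and their median level over all samples was 56.5 normalized reads against 44.3. The share past the limit depends on the level, since 16.5% of the 25% of peaks with the lowest level were lower and 2.75% of the 25% with the highest. Among the highest 25%, where 54.1% of all peaks were below 0, the 5 genes had 11 peaks, all below 0, with a median of −0.50, and 1 of these passed the 2-fold limit. Among the next 25% they had 9 peaks with a median of −0.75, 2 of them lower, against 9.13% of all peaks there. Below these, 5 peaks had a median of −0.90, with 2 lower and 1 higher, against 14.0% and 4.30%. Among the lowest 25% they had 10 peaks with a median of −0.41, 3 lower and 1 higher, against 16.5% and 12.5% of all peaks there. Values below 0 were therefore not limited to weak peaks.

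**Figure D2:**
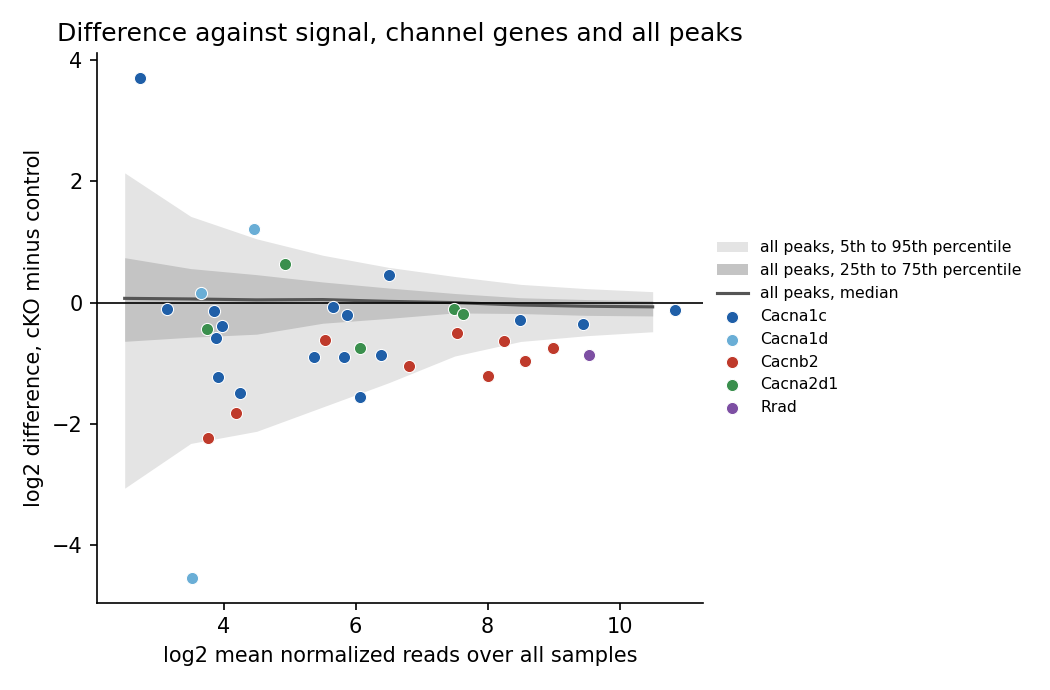
Difference in H3K27Ac (log2, *Arid1a cKO* minus control) against the log2 mean normalized reads over all samples, for the 35 peaks of the 5 genes (points) and for all peaks (bands of percentiles in bins of 1 log2 unit). Among the 25% of peaks with the highest level all 11 points lie below 0, and the *Rrad* peak and several *Cacnb2* peaks lie under the band of all peaks.

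*Cacna1c* encodes the pore subunit that carries most of the L-type current of ventricular cardiomyocytes. The gene spans 609 kb on the minus strand of chromosome 6 (chr6:118587240-119196409), with 11 curated transcripts and 3 starts. Of its 17 peaks, 15 were below 0, 3 were lower and 1 was higher by the 2-fold limit, and the median difference was −0.35. The sum over its peaks was 3721 normalized reads in control and 3131 in *Arid1a cKO* (log2 ratio −0.25).

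The starts of *Cacna1c* differed in sequence and in H3K27Ac. Both starts that lie under a peak are shown by the 250 bases before them (RefSeq, GRCm38.p6, minus strand, 5′ to 3′), because one gave a value below 0 and the other a value above 0. The upstream start has 4 curated transcripts and 51.6% GC before it (chr6:119196410-119196659), and the internal start, 87.9 kb downstream, has 6 transcripts and 82.8% GC (chr6:119108496-119108745). The median over all promoters of this length was 52.4%.
*Cacna1c* upstream promoter: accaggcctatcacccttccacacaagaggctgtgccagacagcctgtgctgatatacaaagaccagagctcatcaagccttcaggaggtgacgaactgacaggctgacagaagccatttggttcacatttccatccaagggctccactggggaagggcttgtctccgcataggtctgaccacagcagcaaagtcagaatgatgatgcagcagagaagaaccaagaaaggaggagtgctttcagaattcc
*Cacna1c* internal promoter: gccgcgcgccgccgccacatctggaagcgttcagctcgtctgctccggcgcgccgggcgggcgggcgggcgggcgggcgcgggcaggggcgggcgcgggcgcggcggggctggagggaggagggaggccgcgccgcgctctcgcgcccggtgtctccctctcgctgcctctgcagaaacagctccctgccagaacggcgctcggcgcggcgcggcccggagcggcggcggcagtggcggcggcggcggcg
The peak over the upstream start (chr6:119186750-119202623, 15874 bp) held 1911 normalized reads in control and 1746 in *Arid1a cKO*, a difference of −0.13. The peak over the internal start (chr6:119106522-119110212) held 77.2 in control and 105 in *Arid1a cKO*, a difference of 0.45. Its centre lies in an exon, and it was the only *Cacna1c* peak besides the one past the limit upstream of the gene with a value above 0. Neither promoter peak passed the 2-fold limit. The third start (chr6:118757974) had no peak within 37.7 kb.

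Away from the starts, the values of *Cacna1c* differed by region. The peak at chr6:119069060-119073811, in intron 1 of the longest transcript and 37.1 kb downstream of the internal start, held 100.4 normalized reads in control and 34.1 in *Arid1a cKO* (log2 6.65 and 5.09), 2.95-fold lower. The neighbouring peak at chr6:119076982-119077986, also in intron 1, held 21.1 and 9.0, which was 2.35-fold lower. In the same stretch the next peaks towards the internal start had differences of −0.87, −0.90 and −0.38. These 5 consecutive peaks thus all lay below 0, and the 2 farthest from the internal start were past the 2-fold limit. The wide peaks of intron 1 between the internal and the upstream start gave small differences, −0.35 at 776 normalized reads in control and −0.28 at 396. Another lower peak, chr6:118795670-118796930 in intron 3, held 27.9 in control and 9.92 in *Arid1a cKO*, 2.81-fold lower, and its neighbours had differences of −0.10 and −0.90. The higher peak lay 19 kb upstream of the gene (chr6:119215147-119215733, 587 bp), with 0.946 normalized reads in control and 12.3 in *Arid1a cKO*. The control value is the lowest in the table, shared by 46 peaks, and against a floor of 3 normalized reads this peak was at least 4.1-fold higher. It is a weak peak, and the gene's other upstream peak had a difference of −0.14. Both upstream peaks lie within *Dcp1b*, a gene on the other strand. Among the 29 peaks in or within 5 kb of *Cacna1c*, 0 were higher by the 2-fold limit.

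*Cacna1d* encodes the other α1 subunit of the list, which opens at more negative voltages and is known for its part in sinoatrial pacemaking. Its gene spans 451 kb on the minus strand (chr14:30039941-30491156). By the nearest start its H3K27Ac was sparse, with 3 peaks and 47.1 normalized reads over them in control and 45.1 in *Arid1a cKO*. Per kb of peak this was 13.7 normalized reads in control, against 58.5 for *Cacna1c* and 51.7 over all peaks. No peak covered either of its 2 starts, although 1 peak began 0.147 kb from the internal start (chr14:30353633-30354195) and held 12.0 normalized reads in control and 13.3 in *Arid1a cKO*. The other 2 peaks, both in intron 3, differed in opposite directions. At chr14:30217754-30218885 the control held 21.9 normalized reads and *Arid1a cKO* 0.946, the lowest value in the table, shared by 279 peaks in that group, so the peak was at least 7.29-fold lower against the floor of 3. At chr14:30324988-30326717 the control held 13.3 and *Arid1a cKO* 30.9, 2.33-fold higher. The gene's median (0.15) was above 0 while the log2 ratio of its sums (−0.06) was below 0, so no direction is given for *Cacna1d*. These values depend on the assignment of peaks. The 7 peaks in or within 5 kb of the gene held 310 normalized reads in control and 351 in *Arid1a cKO*. Their median (0.33) and the log2 ratio of their sums (0.18) were both above 0.

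*Cacnb2* encodes the main β subunit of the heart. The gene spans 384 kb on the plus strand (chr2:14604306-14987908), with 3 curated transcripts that each have a start of their own. All 9 of its peaks were below 0, 4 were lower by the 2-fold limit and none was higher. The median difference was −0.96, and the sum over the peaks was 2334 normalized reads in control and 1305 in *Arid1a cKO*, a log2 ratio of −0.84. The median stayed below 0 with the differences centred on all peaks (−0.97), with all peaks of the gene body (−1.01) and without the 25% of peaks with the lowest level (−0.85). As reported it was the lowest of the 5 genes, whereas without these weak peaks that of *Rrad* (−0.87) was further below 0.

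Of the 9 peaks counted for *Cacnb2*, the 4 past the limit lay in the downstream part of the gene. The 2 peaks nearest to the first start held 586 normalized reads together in control and 392 in *Arid1a cKO* (log2 ratio −0.58). The 3 peaks nearest to the second start, 219.8 kb into the gene, held 1189 and 673 (−0.82). The 4 peaks nearest to the third start, 269.4 kb into the gene, held 559 and 240.2 (−1.22), and all 4 were lower by the 2-fold limit. A further peak (chr2:14676149-14677153), between the first and the second start at 72.3 kb, was nearest to a start of Gm13315 and stands outside these sums. It held 14.7 in control and 3.78 in *Arid1a cKO*, a difference of −1.96, so a large difference also occurred in the upstream part. The third start had no peak of its own, the nearest lying 34.2 kb away. The 250 bases before the first and the second start are shown because both lie under wide peaks (RefSeq, GRCm38.p6, plus strand, chr2:14604056-14604305 and chr2:14823842-14824091). They hold 73.2% and 46.0% GC.
*Cacnb2* first promoter: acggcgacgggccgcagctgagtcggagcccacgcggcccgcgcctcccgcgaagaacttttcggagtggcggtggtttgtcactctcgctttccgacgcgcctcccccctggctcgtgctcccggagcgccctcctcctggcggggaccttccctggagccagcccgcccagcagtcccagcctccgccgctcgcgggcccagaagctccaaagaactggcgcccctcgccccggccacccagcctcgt
*Cacnb2* second promoter: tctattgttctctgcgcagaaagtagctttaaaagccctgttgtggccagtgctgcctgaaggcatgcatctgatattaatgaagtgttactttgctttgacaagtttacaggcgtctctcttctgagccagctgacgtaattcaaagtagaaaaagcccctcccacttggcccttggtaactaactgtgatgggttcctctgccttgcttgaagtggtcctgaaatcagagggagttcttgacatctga
The peak over the first start (chr2:14603625-14609836) held 369.6 normalized reads in control and 239 in *Arid1a cKO* (log2 8.53 and 7.90). The peak over the second start (chr2:14820559-14831999, 11441 bp) held 635 in control and 380.0 in *Arid1a cKO* (log2 9.31 and 8.57). The differences were −0.63 and −0.74, both below 0 and neither past the 2-fold limit.

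The 4 lower peaks of *Cacnb2* all lay in intron 3 of the longest transcript, 44.1 to 78.7 kb downstream of the third start. The largest of them, chr2:14932799-14939059, held 357 normalized reads in control and 154 in *Arid1a cKO* (log2 8.48 and 7.27), 2.31-fold lower, and was the one peak of the 5 genes among the 25% with the highest level that passed the limit. Beside it, chr2:14927565-14932163 held 151 and 73.0, which was 2.07-fold lower. The weaker peaks on either side showed larger differences, 28.4 and 8.06 at chr2:14916998-14918424 (3.53-fold lower) and 22.3 and 4.76 at chr2:14951609-14953075 (4.69-fold lower). The central 300 bases of the largest of these peaks and of the lower *Cacna1d* peak are shown (mm10, plus strand, chr2:14935779-14936078 and chr14:30218169-30218468). They were chosen after the values were seen, because in both a match to the ESRR motif lies within 10 bp of the centre. Capitals mark matches on either strand to the ESRR motif, AAGGTCA, and in the *Cacna1d* peak also to the ZEB and SNAI motif, CAGGTG.
*Cacnb2* intron 3 peak: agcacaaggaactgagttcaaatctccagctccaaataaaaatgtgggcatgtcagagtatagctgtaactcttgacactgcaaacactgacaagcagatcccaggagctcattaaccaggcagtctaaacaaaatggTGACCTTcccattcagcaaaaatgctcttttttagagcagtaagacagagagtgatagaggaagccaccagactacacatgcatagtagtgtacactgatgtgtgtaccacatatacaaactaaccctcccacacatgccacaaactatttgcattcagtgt
*Cacna1d* intron 3 peak: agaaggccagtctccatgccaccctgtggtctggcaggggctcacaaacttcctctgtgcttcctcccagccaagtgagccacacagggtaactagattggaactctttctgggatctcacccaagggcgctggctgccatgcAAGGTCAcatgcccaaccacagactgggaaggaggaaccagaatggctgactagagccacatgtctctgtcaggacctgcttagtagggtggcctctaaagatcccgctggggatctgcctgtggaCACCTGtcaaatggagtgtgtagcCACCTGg

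**Figure D3:**
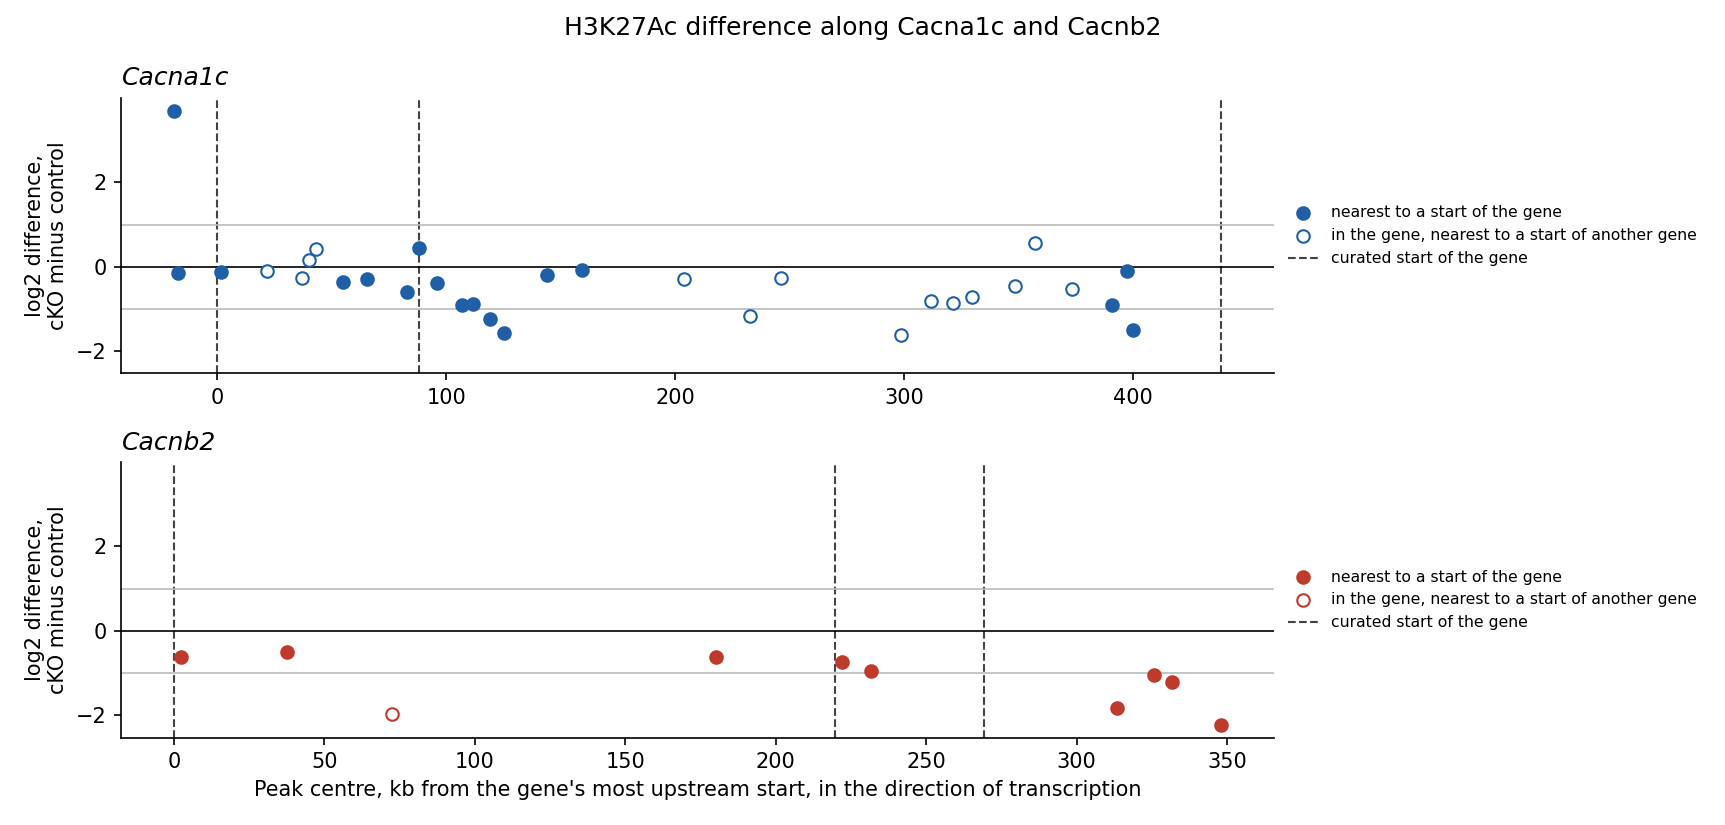
Difference in H3K27Ac (log2, *Arid1a cKO* minus control) along *Cacna1c* and *Cacnb2*, by the distance of each peak's centre in kb from the gene's most upstream start; filled points are peaks nearest to a start of the gene, open points are peaks in or within 5 kb of the gene that are nearer to a start of another gene, dashed lines are the starts, and grey lines the 2-fold limits. All points of *Cacnb2* lie below 0, with the 4 peaks past the third start under −1 and 1 open point between the first and the second start at −1.96, whereas *Cacna1c* is near 0 at its upstream start.

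*Cacna2d1* encodes the α2δ subunit, with 5 curated transcripts from 1 start on the plus strand (chr5:15934691-16374511). Of its 5 peaks, 4 were below 0 and none passed the 2-fold limit, with a median of −0.19. The peak over its start held 186 normalized reads in control and 174 in *Arid1a cKO*, a difference of −0.10. At the other peaks of intron 1 the values ran from −0.19 to −0.75, the latter at chr5:15970380-15973057 with 84.4 in control and 50.2 in *Arid1a cKO*. The peak farthest from the start, in intron 3, had 23.8 and 37.0, a difference of 0.64. The sum over the peaks was 519 in control and 456 in *Arid1a cKO* (log2 ratio −0.19), so *Cacna2d1* differed less than *Cacnb2*.

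*Rrad* encodes an RGK GTPase that inhibits the channel through its β subunit. Its compact gene of 3.22 kb on the minus strand (chr8:104628070-104631289) lay within a single peak of 7478 bp (chr8:104626960-104634437), which covered the start and all 5 exons. This peak held 962 normalized reads in control and 526 in *Arid1a cKO* (log2 9.91 and 9.04), a difference of −0.87 that did not pass the 2-fold limit. Over the 3 peaks in or within 5 kb of the gene the median was −0.36, since a flanking peak nearest to *Ciao2b* had that value and one nearest to *Cdh16* had 0.19. In normalized reads per kb of peak, *Rrad* had the highest level of the 5 genes in both groups, 128.7 in control and 70.4 in *Arid1a cKO*. In control, *Cacna1c* (58.5), *Cacnb2* (53.3) and *Cacna2d1* (47.2) followed, and in *Arid1a cKO* the order of *Cacnb2* (29.8) and *Cacna2d1* (41.4) was the other way round, with *Cacna1d* lowest in both groups. The inhibitor and the β subunit it works through thus had log2 ratios of similar size, −0.87 and −0.84. The order per kb compares unlike peaks. The single *Rrad* peak covers its start, whereas each of the other genes has peaks that cover no start. Whether neighbours in this order differ beyond the spread between hearts was not tested.

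Peaks past the limit lay away from the starts. Of the 35 peaks 6 covered a start of their gene, with a median of −0.38 and none past the 2-fold limit. Among all peaks that cover a start of any gene 1.70% were lower and 1.16% higher, so few were past it there too. The other 29 had a median of −0.59, with 8 lower (27.6%) and 2 higher (6.90%), against 13.8% and 5.78% of all peaks that cover no start. None of the 10 peaks past the limit covered a start.

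Sequence matches were counted on both strands for 5 motifs, and a match is a description of letters. These were the MEF2 core (CTA, 4 letters that are each A or T, then TAG), ESRR (AAGGTCA), ZEB and SNAI (CAGGTG), TEAD (CATTCC) and MYC (CACGTG). In the central 500 bp, 5 of the 35 peaks held an ESRR match (14.3%, against 11.3% of all peaks), 13 a ZEB and SNAI match (37.1%, against 28.0%), 12 a TEAD match (34.3%, against 26.4%), 1 a MYC match (2.86%, against 7.96%) and 1 a MEF2 match (2.86%, against 2.58%). The shares lay near those of all peaks. Over whole peaks, ESRR had 0.309 matches per kb in the channel genes and 0.230 in all peaks. In the 8 lower peaks of the channel genes there were 11 ESRR matches, 0.502 per kb, against 0.309 in all 4878 lower peaks. In the same 8 peaks ZEB and SNAI had 1.05 matches per kb, against 0.865 in all lower peaks, TEAD had 0.730, against 0.655, and MYC had 0.0913, against 0.162, so ESRR was not alone in lying above the value of all lower peaks. No MEF2 match lay in these 8 peaks, against 0.0586 per kb in all lower peaks. The MEF2 core was the rarest of the 5 motifs in all peaks, so a lack of matches in 8 peaks says little. The 11 ESRR matches are listed with 10 bases on each side, in capitals and on the strand of the match, with the genomic position of the match on mm10, to show that the flanks differ from one match to the next.
*Cacnb2* chr2:14928238-14928244, plus strand: aaaaccatgaAAGGTCActcattagtc
*Cacnb2* chr2:14928655-14928661, minus strand: tagatatgacAAGGTCAagaagggaga
*Cacnb2* chr2:14928708-14928714, plus strand: ggatccaagcAAGGTCAccaacagtct
*Cacnb2* chr2:14933991-14933997, minus strand: tctgagttacAAGGTCAaacactttct
*Cacnb2* chr2:14935917-14935923, minus strand: gctgaatgggAAGGTCAccattttgtt
*Cacnb2* chr2:14937045-14937051, minus strand: tacgttgctcAAGGTCAcgaagaacag
*Cacnb2* chr2:14952792-14952798, minus strand: cagcattaagAAGGTCAagacaggagg
*Cacna1c* chr6:118795829-118795835, minus strand: ggacaaatggAAGGTCAcaggaataaa
*Cacna1c* chr6:119071056-119071062, plus strand: cctgcaccatAAGGTCAggccacctgc
*Cacna1c* chr6:119073692-119073698, minus strand: gtaggagacaAAGGTCAtactcttgaa
*Cacna1d* chr14:30218312-30218318, plus strand: gctgccatgcAAGGTCAcatgcccaac
The channel genes held 5 MEF2 matches, none of them in a peak past the 2-fold limit, and 1 of these lies in the *Cacna1c* peak over the upstream start.
*Cacnb2* chr2:14641218-14641227, plus strand: ggagctgtggCTATTTATAGcttcttttct
*Cacnb2* chr2:14837314-14837323, plus strand: agaatacttaCTAAATATAGtttagtcaac
*Cacna1c* chr6:118805639-118805648, plus strand: ctcaggatagCTATTTATAGctcaaaagga
*Cacna1c* chr6:119037975-119037984, plus strand: tcccgaaacaCTATAAATAGaaatgtcttg
*Cacna1c* chr6:119199936-119199945, plus strand: cttgtgagagCTAATTTTAGgcaaccagct
None of the 5 motifs occurred in the 250 bases before the 8 starts of 4 genes that matched the RefSeq promoter table, the sequences before the *Cacna1c* and *Cacnb2* starts above included. Among 32851 promoters of this length, 0.508% held a MEF2, 4.08% an ESRR, 17.2% a ZEB and SNAI, 12.6% a TEAD and 6.02% a MYC match. The start of *Rrad* and the third start of *Cacnb2* were not among those matched.

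Of 35 other genes of calcium channels and their partners, 22 had peaks, 73 in all, of which 13 of 7 genes were lower (17.8%) and 4 of 3 genes were higher (5.48%), with a median of −0.05. Among all peaks 10.6% were lower and 4.57% higher, so the share of higher peaks lay near that of all peaks. Among the other subunits of voltage-gated channels 9 of 22 genes had peaks. Of their 35 peaks 10 were lower (28.6%), a share above the 22.9% of the L-type channel genes. The T-type pore gene *Cacna1g* had a peak with 613 normalized reads in control and 171 in *Arid1a cKO*, a difference of −1.84. Its relative *Cacna1h* had the lowest median of the list (−1.72), with 4 of 5 peaks lower. *Cacna1b*, the N-type pore, had 1 lower peak (94.4 and 13.7, a difference of −2.78). Of the β subunits, *Cacnb4* had 4 of 13 peaks lower and a median of −0.57, whereas *Cacnb3* had the highest median of the list (1.31), with 2 peaks higher by 1.69 and 2.16. The β subunit genes with lower peaks were thus *Cacnb2* and *Cacnb4*. The 3 other RGK genes, *Gem*, *Rem1* and *Rem2*, had 4 peaks between −0.40 and 0.38, none past the limit, beside −0.87 for *Rrad*. Among the partners, the kinase gene *Camk2g* had 1 lower peak (13.2 in control and 5.21 in *Arid1a cKO*). *Camk2d*, the main such kinase of the heart, had 1 higher peak (4.99 and 11.9). *Cav3*, a caveolin of muscle, had 1 lower (51.3 and 19.4) and 1 higher (3.94 and 8.06). Most of these partner peaks were weak. All 4 peaks of *Jph2*, which holds the dyad together, were below 0, with 4600 normalized reads in control and 3666 in *Arid1a cKO*.

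Markers of cell types were read in the same way. The 6 cardiomyocyte markers all had peaks, with the highest level at *Myh6* (log2 11.81 in control and 11.94 in *Arid1a cKO*) among them. They did not share a direction: the sum had a log2 ratio of 0.28 at *Tnni3* and 0.13 at *Myh6*, with 1 peak each, −0.08 at *Ryr2*, −0.11 at *Myl2*, whose 2 peaks had differences of −0.15 and 2.59, −0.35 at *Actn2* and −0.46 at *Tnnt2*, the last 2 with all of their 7 and 4 peaks below 0. Their 33 peaks had a median of −0.15 and a sum of 15418 normalized reads in control and 14317 in *Arid1a cKO*. Of these peaks 2 were lower and 2 higher (6.06% each), against 10.6% and 4.57% of all peaks. The 6 fibroblast markers all had peaks, 41 in number. Of these peaks 2 were below 0 and 8, of 2 genes, were higher (19.5%, against 4.57% of all peaks). The median of the fibroblast marker peaks was 0.46. Their sum was 2955 in control and 4145 in *Arid1a cKO*, and their most abundant peak belonged to *Tcf21* (log2 8.70 and 9.08). Most fibroblast marker peaks thus lay above 0, and most of those of the channel genes below it. The cardiomyocyte sum had a log2 ratio of −0.11 and that of the channel genes one of −0.47. Endothelial markers had a median of 0.09 over 47 peaks (11020 and 11223, most abundant *Cdh5*), and mural markers one of 0.19 over 17 peaks (1660 and 2126, most abundant *Pdgfrb*). Leukocyte markers had 4 peaks with a median of 0.31 (105 and 154, most abundant *Ptprc*), and *Adgre1* had no peak. Of the neuronal markers *Elavl4* and *Tubb3* had no peak, and *Snap25* had 3 with a median of −0.32 (254 and 192).

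**Figure D4:**
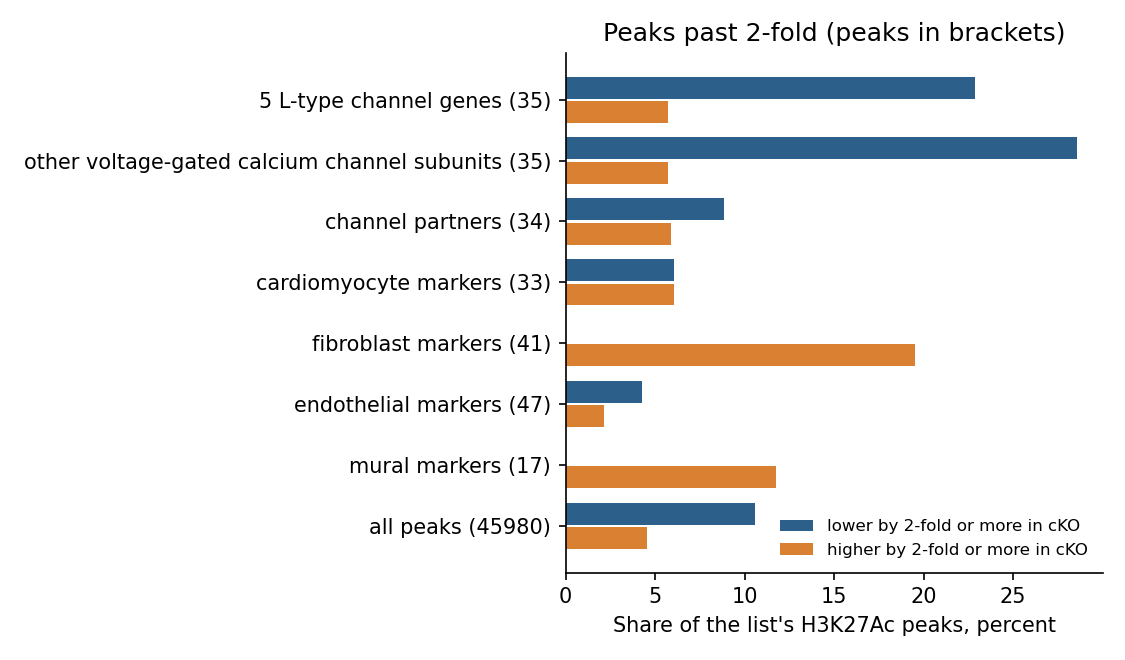
Share of H3K27Ac peaks (percent) that were lower or higher in *Arid1a cKO* by 2-fold or more, for the 5 L-type channel genes, other calcium channel lists, marker lists of cell types and all peaks; lists with under 5 peaks are left out. Lower peaks made up 22.9% for the L-type channel genes and 28.6% for the other voltage-gated calcium channel subunits. For all peaks the share was 10.6%, and for the cardiomyocyte markers 6.06%.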

How the data were processed

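H3K27Ac ChIP-Seq was analysed from P7 ventricles of 2 control and 2 *Arid1a cKO* hearts, each with an input library. Per the authors' methods and the submitters' processing notes, reads were mapped to mm10 with BWA 0.7.17-r1188, peaks were called with HOMER in its histone mode against the pooled inputs and kept if seen in 2 or more samples, and the genotypes were compared in DiffBind 2.12.0 by way of DESeq2 1.24.0. For each peak the deposited table gives its concentration as log2 of the mean normalized reads, over all samples and in each group. It holds 0 columns of per-sample values, so no SD or depth per library could be given and no new test was fitted. How libraries were scaled and whether input reads were subtracted is not given in the sources used here. The table also has the fold change, p-value and FDR of each peak from the authors' own test, which were left out by choice.

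Differences were taken between the 2 group concentrations as deposited. Peaks were joined to 45756 curated RefSeq transcripts of GRCm38.p6 by the start nearest to the centre, leaving out 7 peaks on unplaced sequences. Where a group mean was 3 normalized reads or less, the fold of a single peak was computed against 3 and is a lower bound. Medians use the deposited values, and that of the 5 genes was also −0.59 with this floor. Promoter sequences are from RefSeq, GRCm38.p6. The members and lists were chosen with earlier results of these data known. Named were the 5 genes with each of their peaks past the 2-fold limit, and of the other lists the genes with a peak past the limit and the highest and lowest median. Some genes of the lists enter the counts and are not reported by name here. Other peaks and genes with values, such as *Jph2*, the other RGK genes and the remaining member peaks, were picked after their values were seen. Likeness was the Euclidean distance over the log2 sums in both groups, among genes with at least 5 peaks. Alternatives covered the fold limit, centring, weak peaks, the floor, the assignment of peaks to genes, distance, and the motif window. The assignment and the motif search were tested on simulated data. Python 3.11.15 was used with numpy 2.4.6, pandas 2.3.3, scipy 1.17.1 and matplotlib 3.10.9.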

Additional observations from a re-analysis of the deposited data

How the results depend on the processing

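Of 45 alternative values 37 stayed within 1.5-fold of the reported count, within 1.5-fold of the reported median or within the 95% Wilson interval of the reported motif share, and 8 moved further. For medians this limit is 0.585 on the log2 scale, larger than the medians of *Cacna1c* (−0.35), *Cacna2d1* (−0.19) and *Cacna1d* (0.15). A median of these genes could thus change sign and still count as staying. The tally does not show that their direction is stable. For *Rrad*, −0.36 over the peaks in or within 5 kb counted as staying beside −0.87. No value past the 2-fold limit changed sign, but the median of *Cacna1d*, 0.15, had the opposite sign as the log2 ratio of its sums (−0.06). For the 5 genes, 18 peaks were lower at a 1.5-fold limit and 3 at a 3-fold limit, where 1 was higher. Without the 25% of peaks with the lowest concentration, which left 25 of the 35, 5 were lower and 1 was higher, and the median of *Cacna1d* was 1.22 from the 1 peak left. Centring, the floor and measuring from the peak's edge each left 8 lower and 2 higher. With all 56 peaks in or within 5 kb of the genes 11 were lower, as with the 47 nearest to a protein-coding start. Within 100 kb of the start 7 were lower. The number of peaks counted differs between these settings, so a larger count need not be a larger share. Shares of all peaks under these settings are not given here. The other calcium channel genes had 7 higher peaks of 73 at a 1.5-fold limit, where 12.0% of all peaks were higher. The TEAD share was 60.0% in the central 1000 bp, against 45.0% of all peaks. Matches per kb of whole peak are in another unit: 0.851 and 0.776 for ZEB and SNAI, 0.665 and 0.612 for TEAD, 0.101 and 0.167 for MYC, and 0.0387 and 0.0334 for MEF2, in the channel genes and all peaks. No paired analysis was possible because the table holds group means, and no replicate could be left out for the same reason. With 2 hearts a group and no value per heart, the spread between hearts is unknown. Differences of the weakest peaks rest on few reads.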

Other observations

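Introns of *Cacna1c* held further peaks that were assigned to other genes. Of 29 peaks in or within 5 kb of *Cacna1c*, 10 were nearest to the start of 4931430N09Rik, a noncoding RNA gene within *Cacna1c*. Of these 10, 9 were below 0 and 2 were lower by the 2-fold limit, and their sum was 694 normalized reads in control and 442 in *Arid1a cKO* (log2 ratio −0.65). Another 4 were nearest to *Dcp1b*, a gene of mRNA decapping that overlaps the upstream end of *Cacna1c* on the other strand. The widest of these, chr6:119163159-119186098 (22940 bp), held 1652 normalized reads in control and 1531 in *Arid1a cKO*, a difference of −0.11, close to that of the adjoining peak over the upstream *Cacna1c* start. With the further peak nearest to Gm13315, all 10 peaks of the *Cacnb2* gene body were below 0. In *Cacna1d* the 4 further peaks had differences from −0.05 to 2.67, the highest at a peak nearest to *Chdh* with 3.73 in control and 23.8 in *Arid1a cKO*.

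Among 2746 genes with at least 5 peaks, the median difference of *Cacnb2* was the 127th lowest, that of *Cacna1c* the 518th and that of *Cacna2d1* the 792nd. Of 943 genes with at least 9 peaks, 19 (2.01%) had all peaks below 0. *Cacnb2* was 1 of them, as were *Corin*, *Kcnh2*, *Sgcd*, *Hdac4* and *Ror1*. By the log2 sums in control and *Arid1a cKO*, 2 values a gene, *Cacnb2* was nearest to *Exog* (distance 0.123), *Angptl2* (0.129) and *Ahdc1* (0.161). *Cacna1c* was nearest to *Dusp1* (0.0190), *Irf2bpl* (0.0272) and *Meis1* (0.0291).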
